A study of Mus musculus with 2 samples.

Results

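Amino acid transporters of the plasma membrane and lysosome were described in peritoneal macrophages of MeXis null and wild-type (WT) mice. Members were all non-control probes of the array whose gene name belongs to the solute carrier families SLC1, SLC3, SLC6, SLC7, SLC36, SLC38 or SLC43, which gave 110 probes of 60 genes among 56605 probes of 37074 gene names. The MeXis null macrophages lack MeXis, a long noncoding RNA gene that neighbours the cholesterol transporter gene Abca1. The WT macrophages carry the gene, and the labels give the strain of both as bl6. Macrophages of both genotypes were kept in DMEM with serum, and no ligand or other treatment is named. Age, sex and the way the deletion was made are not given in the sources used here. Each genotype was measured on 1 one-colour Agilent array that held RNA pooled from 3 samples, so no genotype difference could be tested, and every value compares these 2 pools. Pools and arrays cannot be told apart from genotype.

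Cells take up essential amino acids, and much of their supply of the others, through membrane carriers. The CD98 heavy chain, encoded by Slc3a2, brings SLC7 light chains to the cell surface, where they exchange large neutral or cationic amino acids or import cystine in exchange for glutamate. Many SLC38 and some SLC1 carriers use the sodium gradient to load cells with glutamine, alanine and other small neutral amino acids. Other SLC1 carriers take up glutamate. SLC36 and some SLC38 proteins act at the lysosome, and many SLC6 carriers serve neurotransmitters or osmolytes. In macrophages arginine supply feeds both nitric oxide and arginase, and cystine supply feeds glutathione.

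All signals below are processed Cy3 intensities of a probe. Each difference is the log2 value on MeXis null less that on WT, after each array was scaled to the 75th percentile of the probes above background on both arrays. A probe counted as above background where the scanner software marked it so. The lowest such signal was 27.3 on the MeXis null array and 12.1 on the WT array. A gene was read from its brightest probe above background on both arrays, and signals of different probes are not comparable as levels. The members are called higher or lower at 2-fold, just outside the 1.88-fold (a difference of 0.91) that limits the spread between spots of one probe. That limit came from 285 probes with at least 5 usable spots, among which the difference between the arrays had a median SD of 0.47, against a median scanner error of 0.20 for the members. A local surface correction took away the median difference of the 100 spots nearest to a spot, taken relative to the median of such values over the array. With it that median SD was 0.33. The 1 probe of MeXis itself read 8.44 on MeXis null and 12.3 on WT and was above background on neither array, so it does not check the labels. In a pool, fewer cells of a type and less RNA per cell cannot be told apart.

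Probes of the 4 genes at 2-fold, of Slc7a10, which passed 2-fold after local surface correction, and of the undetected LAT1 gene Slc7a5 are shown by their first 30 of 60 bases, 5′ to 3′ in lower case, because probes of 1 gene did not always read alike. The 2 Slc38a9 probes lie 26.7 kb apart, and the 3 Slc38a10 probes span 23.6 kb. Positions are on mm9 as the file headers give the build.
Slc38a10, brightest probe, chr11:119966184-119966243, minus strand: attggaggccacgttcttatgttcccaggg
Slc38a10, dimmer probe, chr11:119989740-119989799, minus strand: atctgctttatctgcccggctctgatctat
Slc38a9, brightest probe, chr13:113495110-113495169, plus strand: tctctgtgagttccaggacagccaaagcta
Slc38a9, dimmer probe, chr13:113521855-113521914, plus strand: gctcagtttttcatgtgaaaactctcttct
Slc43a3, chr2:84797987-84798046, plus strand: tttgatgatccagtatctacaaagactgcc
Slc6a8, brightest probe, chrX:70927775-70927834, plus strand: gggacattcttactgtgctaaaaaagccac
Slc6a8, dimmer probe, chrX:70925849-70925908, plus strand: cttcatcttcaacattgtgtactacgagcc
Slc7a10, chr7:35980415-35980474, plus strand: ttgatgcccactccatttctctggtatcag
Slc7a5, chr8:124430996-124431055, minus strand: tagtcttcgccacctacttgctcaagccgg
These probes were designed on RefSeq transcripts, except the brightest Slc38a9 probe and the Slc7a10 probe. The array annotation describes the transcript behind that Slc38a9 probe as a cDNA with an unclassifiable product, and that behind the Slc7a10 probe as a cDNA with an apparent retained intron. Of all 110 member probes, 86 were designed on RefSeq, 14 on Ensembl and 10 on GenBank transcripts.

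About as many transporter genes were above background as among all genes on the array. Of the 60 members, 27 (45%) passed on both arrays, 4 on MeXis null alone, 0 on WT alone and 29 on neither, while 41.9% of all gene names were above background on both. The families differed widely: 7 of 11 SLC38 genes, 4 of 5 cationic carriers of SLC7, 5 of 10 SLC7 light chains and 2 of 7 SLC1 genes were above background on both arrays, but only 4 of 18 SLC6 genes. The SLC6 genes on neither array included the monoamine carriers Slc6a2, Slc6a3 and Slc6a4, the GABA carriers Slc6a11 and Slc6a13, the glycine carrier Slc6a5, the proline carrier Slc6a7, the epithelial and amino acid carriers Slc6a14, Slc6a15, Slc6a18 and Slc6a19, and Slc6a16 and Slc6a17. The glial and neuronal glutamate carriers Slc1a1, Slc1a2 and Slc1a3 and the retinal Slc1a7 were also on neither. So were Slc3a1, the heavy chain of kidney cystine uptake, its partner Slc7a9, and Slc7a12, Slc7a13, Slc7a15, Slc36a3, Slc38a3, Slc38a5, Slc38a11 and Slc43a1. Slc7a5, the light chain LAT1 that imports leucine with CD98, had 1 probe on the array, which read 9.33 on MeXis null and 9.79 on WT and was not above background on either.

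**Figure D1:**
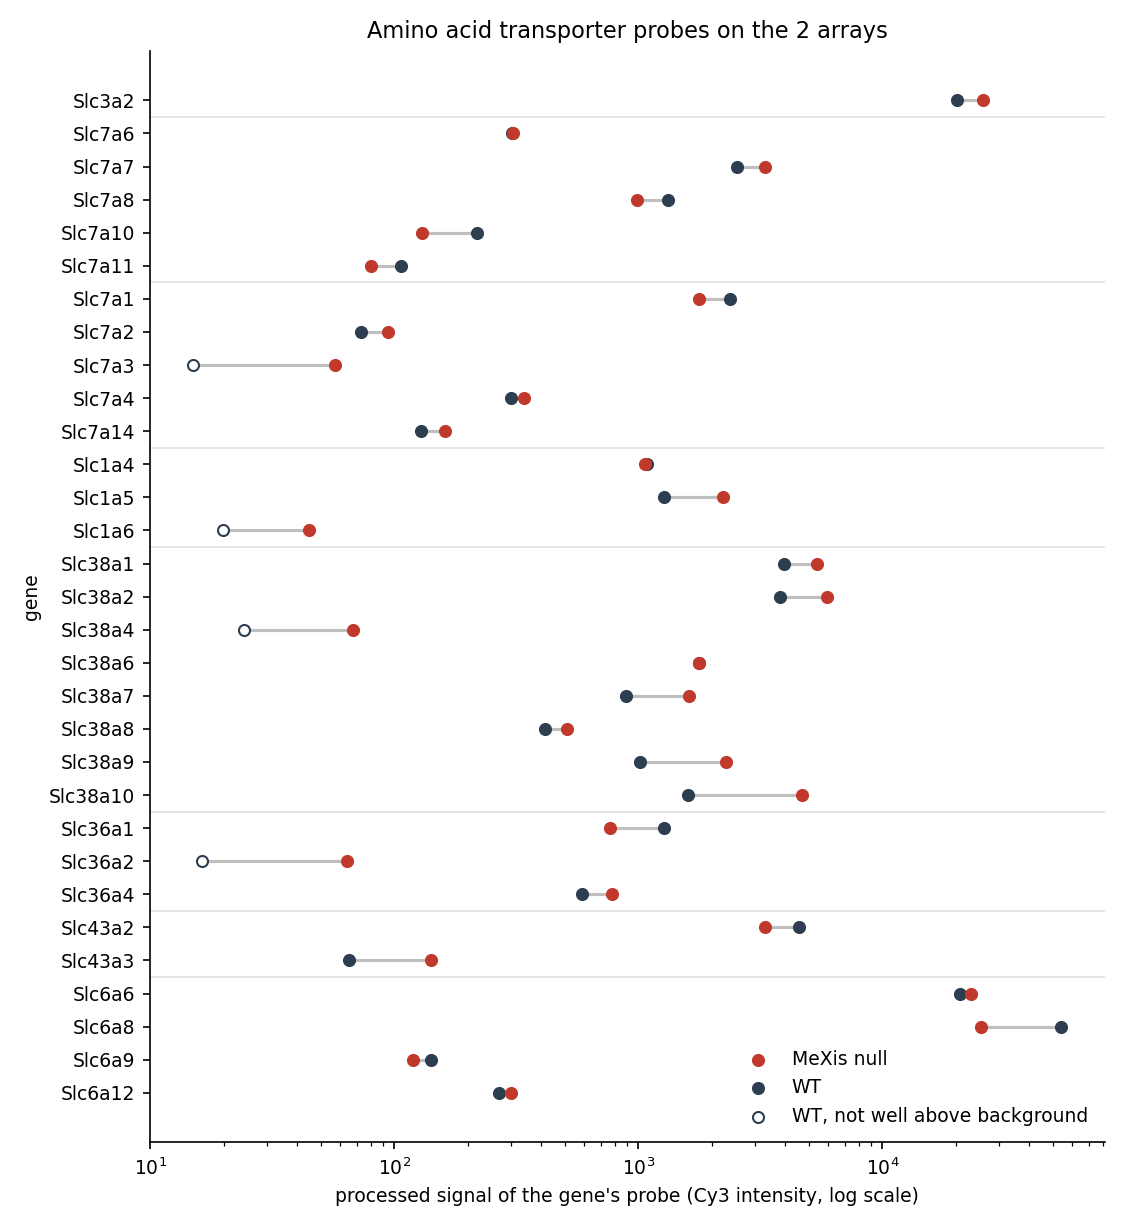
Processed signal (Cy3 intensity, log scale) of the probe that stands for each of the 31 transporter genes above background on at least 1 array, with MeXis null in red and WT in dark blue, grouped by family with grey lines. Most pairs of points lie close together, Slc6a8 and Slc38a10 are the widest of the bright genes, and the 4 open points are WT signals not well above background.

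Markers of the labelled cell type were present: 11 of 12 macrophage markers on the array were above background on both arrays, all but Timd4, with a median difference of 0.43, or 0.03 with local surface correction. They did not go 1 way: Lyz2 was at 1.25 and Cd68 at 0.68, but Csf1r at -0.86 and Mertk at -1.95. Their summed signals, 456224 on MeXis null and 305378 on WT, are mostly those of Cd68 and Lyz2. Markers of other cells differed between the pools. Mesothelial markers, 8 of 8 above background on both, had a median difference of 0.99 and summed signals of 2367 and 991.1 on MeXis null and WT. Fibroblast markers (8 of 10, Lum on WT only and Dpt on neither) had a median of 0.93 and sums of 13709 and 7714. Lum (40.3 on MeXis null and 130.5 on WT) and Col3a1 (-0.13) went the other way. Cell cycle genes (11 of 12, Bub1 on MeXis null only) had a median of 0.94 and sums of 32106 and 23123, mostly those of Pcna (25439 and 17421). Cdk1 (-0.73) and Mcm3 (-0.58) went the other way. B cell markers (6 of 8, Pax5 on WT only and Blk on neither) had a median of -0.85 and sums of 2477 and 3824. Cd22, at -0.13, gave the largest part of these sums (1611 and 1677). The widest marker differences were those of 2 eosinophil genes. Ear2 was above background on WT only (34.3 on MeXis null and 1475 on WT, 45.3-fold lower in MeXis null). So was Ear1 (28.6 and 376.3, 13.8-fold lower), while the granule genes Epx and Prg2 were on neither array. These folds use MeXis null signals that were not above background, so their size is uncertain. In all 1 of 7 eosinophil markers was above background on both arrays and 3 on WT only, with sums of 1647 on MeXis null and 4319 on WT. Neutrophil markers (3 of 8 on both) had a median of -0.45 and sums of 13095 and 20065, mostly those of Csf3r (11696 and 18755). Csf3r was at -0.76 and S100a8 at -0.45, but Elane at 0.21, while S100a9, Ngp, Camp and Mpo were on neither array. T and NK cell markers (4 of 9 on both and 2 on WT only) had a median of -0.20 and sums of 1027 and 1103, mostly those of Cd4. Cd2 was at -1.27 and Cd3e at -0.49, but Prf1 at 0.60 and Cd4 at 0.10. Mast cell markers (2 of 7 on both and 2 on WT only) had sums of 419.6 and 428.3, mostly those of Tpsb2 (325.5 and 252.3). Those on WT only were Cma1 (8.24 on MeXis null and 60.6 on WT) and Cpa3 (6.32 and 37.1). The part of these cells in the transporter differences was not tested.

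Between the pools the transporters spread about as all genes did. Of the 27 genes that passed on both arrays, 3 were higher in MeXis null by 2-fold or more (Slc38a10, Slc38a9 and Slc43a3) and 1 was lower (Slc6a8). In the background of all 15488 genes that passed on both arrays, 7.68% were higher and 4.55% lower by that margin, so the members' counts lie near the background. That split depended on the scaling: 1189 of all genes were higher and 704 lower as scaled here, 942 and 865 with loess, and 891 and 802 with normexp background correction. Their median difference was 0.10, against 0.06 over all genes, and 16 lay above 0 and 11 below. At 1.5-fold 5 members were higher and 3 lower, beside 19.3% higher and 13.8% lower of all genes, and 19 of the 27 were within 1.5-fold. After local surface correction the median was 0.04, against 0.09 over all genes, with 1 member at least 2-fold higher (Slc38a10) and 1 lower (Slc7a10), beside 5.27% and 2.25% of all genes. At 1.5-fold with that correction 5 members were higher and 1 lower, beside 16.1% higher and 8.91% lower of all genes.

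**Figure D2:**
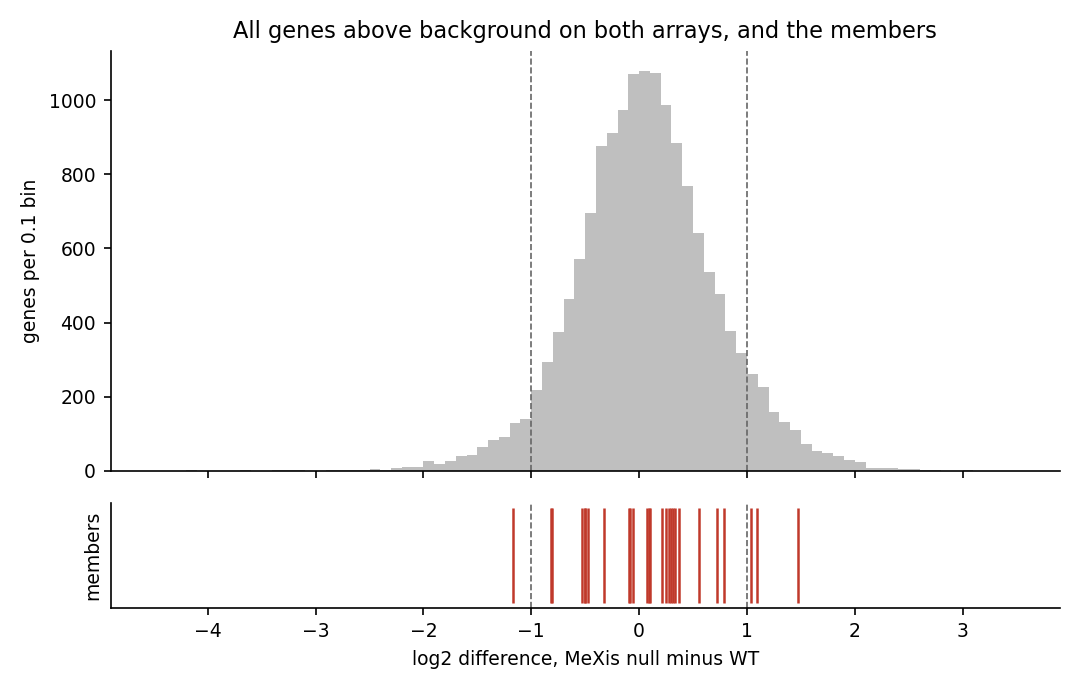
Upper panel, histogram of the log2 difference (MeXis null minus WT) of 15488 genes above background on both arrays; lower panel, 1 red line for each of the 27 transporter genes. Dashed lines mark 2-fold, and 3 members lie beyond it on the right and 1 on the left, within the range of all genes.

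Probes of the same transporter often disagreed, as did those of genes at large. Of 10 members with at least 2 probes above background on both arrays, 8 had probes of opposite sign (54.6% of 5194 such genes on the whole array), with a median gap of 0.85 between the highest and lowest probe, against 0.69 over all such genes. Only Slc38a10 and Slc6a8 had all such probes on 1 side of 0. The widest gap, 1.17, was that of Slc38a9.

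None of the heavy and light chains reached 2-fold, though Slc7a10 did after local surface correction. Slc3a2, which encodes the CD98 heavy chain, read 25691 on MeXis null and 20140 on WT with its brightest probe, a difference of 0.28. Its other probes were at 0.67 and -0.22, and after local surface correction the 3 probes lay between 0.17 and 0.19. Of the 5 light chains above background on both arrays, 4 lay below 0, beside 7154 of all 15488 genes, with a median of -0.48. Among those 4, Slc7a6 and Slc7a11 each had another probe above 0 (0.69 and 0.42).

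Slc7a7, the y+LAT1 chain that exports arginine and lysine and is lost in human lysinuric protein intolerance, read 3305 on MeXis null and 2529 on WT, a difference of 0.31 that became -0.17 after local surface correction. Slc7a6, the related y+LAT2 chain, read 305.5 and 302.1, a difference of -0.06, with its other probe at 0.69. Slc7a8, the LAT2 chain for neutral amino acids, read 988.1 on MeXis null and 1327 on WT, a difference of -0.50. These differences all lie inside the 0.91 limit of the spread between spots.

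Slc7a11, the cystine importer xCT, was dim. Its brighter probe read 80.5 on MeXis null and 106.6 on WT, a difference of -0.48, and its dimmer probe 48.0 and 34.2, a difference of 0.42. The direction was therefore not settled for xCT. Slc7a10, the Asc-1 chain that exchanges small neutral amino acids and D-serine, read 129.9 on MeXis null and 217.5 on WT, a difference of -0.82 that became -1.05 after local surface correction. The Slc7a10 value comes from the cDNA with a retained intron, and the other Slc7a10 probe was not above background on either array.

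The cationic carriers of SLC7 were all above background on at least 1 array, without a shared direction. Slc7a1, the widely expressed arginine carrier CAT1, read 1774 on MeXis null and 2382 on WT, a difference of -0.50. Slc7a2, the CAT2 carrier that supplies arginine to activated macrophages, read 94.4 and 72.9, a difference of 0.30 that became -0.19 after local surface correction. Slc7a4 read 338.3 on MeXis null and 299.5 on WT, a difference of 0.10. The lysosomal Slc7a14 read 161.6 and 128.9, a difference of 0.25, so that none of the 4 measured on both arrays reached 1.5-fold, though Slc7a4 was at -0.64 with normexp. Slc7a3, the CAT3 carrier, was above background on MeXis null only (57.3, against 15.0 on WT).

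Among SLC1 carriers, Slc1a5, the glutamine exchanger ASCT2, was the higher, with 2218 on MeXis null and 1277 on WT. Its difference of 0.72 (1.65-fold) was inside the 0.91 limit of the spread between spots, and it was 0.44 after local surface correction. Slc1a4, the related ASCT1 carrier, read 1069 on MeXis null and 1085 on WT, a difference of -0.10. Slc1a6, a glutamate carrier of cerebellar neurons, was above background on MeXis null only.

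SLC38 carriers held the largest difference among the 27 genes measured on both arrays. Of the 7 SLC38 genes among them 6 lay above 0, beside 53.8% of all genes, with a median of 0.56. The 2 that passed 2-fold, beside 7.68% of all genes, were Slc38a10 and Slc38a9, and the Slc38a9 value rests on 1 of 2 probes. Slc38a10, a member whose transport role is less well described, read 4660 on MeXis null and 1598 on WT with its brightest probe, a difference of 1.47 with a scanner error of 0.20 (2.77-fold). Its dimmer probe, 23.6 kb away, read 359.6 and 226.5, a difference of 0.59. The 2 Slc38a10 probes lay on the same side of 0, and after local surface correction they were at 1.01 and 0.44. Another Slc38a10 probe, above background on WT only, read 40.4 on MeXis null and 28.9 on WT. Its difference was 0.41, and it turned to -0.40 after local surface correction.

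Slc38a9, the lysosomal arginine sensor that signals to mTORC1, gave a split reading. The brightest Slc38a9 probe, that on the unclassifiable cDNA, read 2285 on MeXis null and 1020 on WT, a difference of 1.09. The RefSeq probe of Slc38a9 read 1219 on MeXis null and 1222 on WT, a difference of -0.08. The call at 2-fold thus rests on 1 probe, which was at 0.63 after local surface correction, when the RefSeq probe was at -0.31.

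Slc38a7, which exports glutamine and asparagine from lysosomes, read 1606 on MeXis null and 886.1 on WT, a difference of 0.78, or 0.62 with local surface correction. Slc38a2, the system A carrier that cells induce when amino acids run short, read 5911 and 3810, a difference of 0.56 that was 0.04 after that correction. The glutamine carrier Slc38a1 read 5392 on MeXis null and 3955 on WT, a difference of 0.37, with its other probes on both arrays at 0.36 and -0.06 and a dim probe above background on MeXis null only (46.0, against 21.6 on WT). A dim Slc38a2 probe, above background on WT only, went the other way (8.70 on MeXis null and 31.4 on WT). Slc38a6 read 1770 and 1778, a difference of -0.08, with the 3 probes on both arrays between -0.21 and 0.01, but -0.84 with normexp. Slc38a8 read 509.0 and 416.3, a difference of 0.22 (0.89 after local surface correction). By their brightest probe, only Slc38a10 and Slc38a9 of the 7 exceeded the 0.91 limit of the spread between spots, beside 15.1% of all genes.

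The SLC36 and SLC43 genes went both ways. Slc36a1, a proton-coupled exporter of the lysosomal membrane, read 765.4 on MeXis null and 1270 on WT, a difference of -0.81 (-0.44 after local surface correction), while its dim probe was at 0.21. Slc36a4 read 782.7 and 588.5, a difference of 0.34. Slc43a2, the LAT4 carrier for branched-chain amino acids and phenylalanine, read 3297 on MeXis null and 4532 on WT, a difference of -0.53, with another probe at 0.17.

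Slc43a3 is named for its family but is known as a carrier of purine nucleobases. It read 141.7 on MeXis null and 65.5 on WT, a difference of 1.04 with a scanner error of 0.24 (2.05-fold), just past 2-fold. The difference was 0.83 after local surface correction, and its second probe was not above background on either array.

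Of the 4 SLC6 genes above background on both arrays, 1 was lower by 2-fold or more, beside 4.55% of all genes. Slc6a8, the creatine importer, read 25359 on MeXis null and 54044 on WT with its brightest probe, a difference of -1.17 with a scanner error of 0.20 (2.24-fold lower). Its dimmer probe, 1.93 kb away, read 6583 and 7928, a difference of -0.34. The 100 spots nearest to the brightest Slc6a8 probe themselves had a median difference of -0.83 relative to that typical of the array. After local surface correction the 2 probes were at -0.34 and 0.11, so that Slc6a8 no longer passed 2-fold. Slc6a6, the taurine importer, read 23066 on MeXis null and 20801 on WT, a difference of 0.07. Another Slc6a6 probe was left out as an outlier spot (1642 on MeXis null and 1868 on WT). The glycine carrier Slc6a9 read 119.0 on MeXis null and 141.5 on WT, a difference of -0.33 (0.17 after local surface correction). The betaine and GABA carrier Slc6a12 read 299.9 and 267.7, a difference of 0.09.

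**Figure D3:**
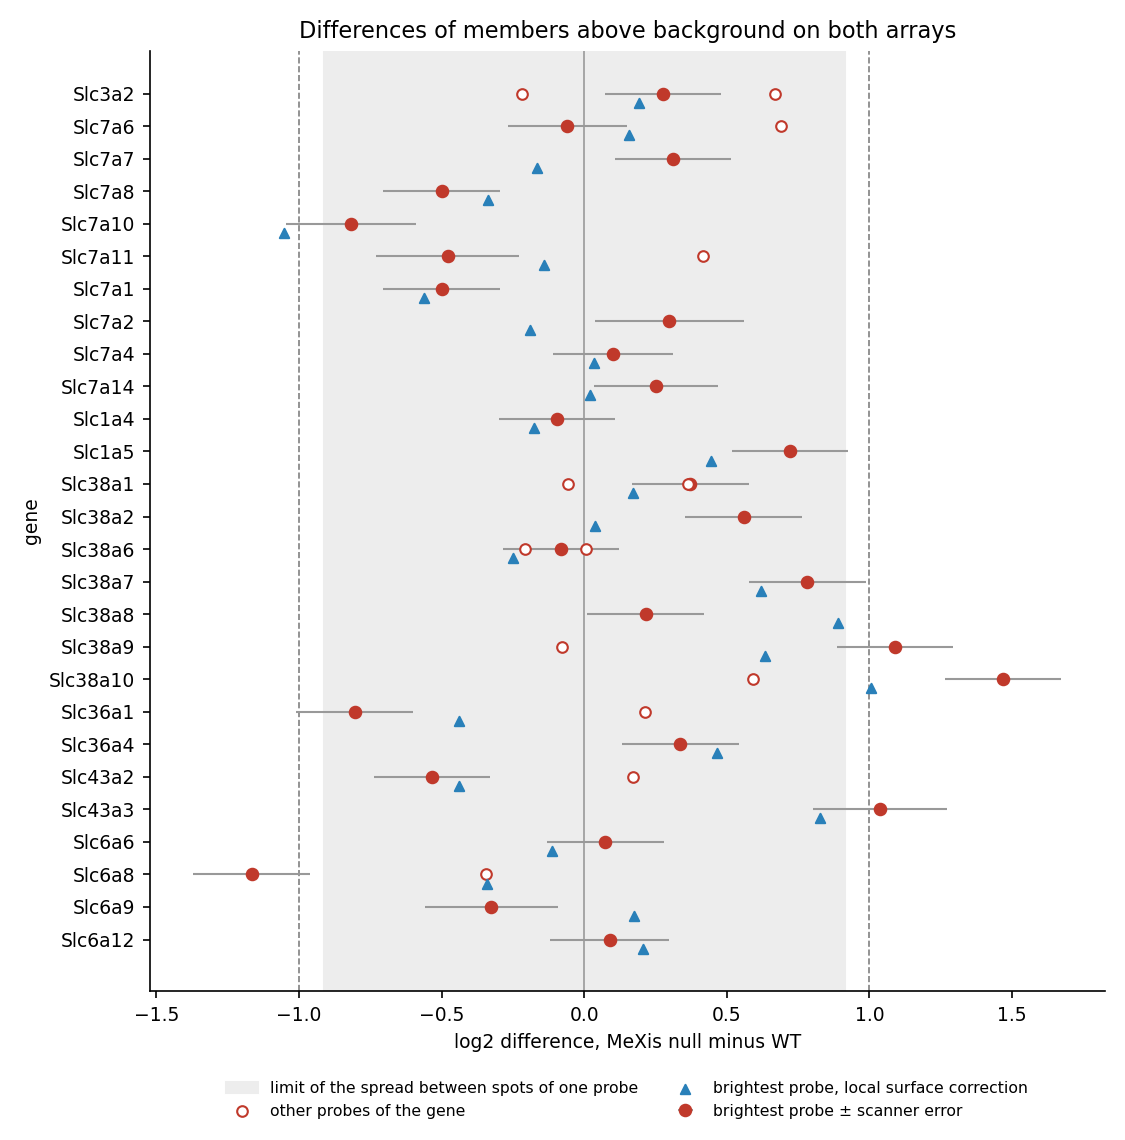
Log2 difference (MeXis null minus WT) of 27 transporter genes, with filled red points for the brightest probe and its scanner error as a bar, open points for other probes above background on both arrays, and blue triangles for the brightest probe after local surface correction. The grey band marks the 0.91 limit of spot spread and dashed lines mark 2-fold; Slc38a10 is the 1 gene whose red point and triangle both lie beyond 2-fold.

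A further 4 genes, 6.67% of the members, were above background on MeXis null only, against 1.25% of all gene names, and 0 on WT only, against 4.40%. All were dim. Slc36a2, a proton-coupled carrier of glycine and proline, read 64.0 on MeXis null and 16.4 on WT and was 3.72-fold higher in MeXis null. A second Slc36a2 probe was above background on WT only, with 21.6 on MeXis null and 27.0 on WT. Slc7a3 was 3.62-fold higher. Slc38a4, a system A carrier known from liver, read 67.8 and 24.2 and was 2.66-fold higher. Another Slc38a4 probe was above background on neither array (7.89 on MeXis null and 10.6 on WT). Slc1a6 read 44.5 and 19.8 and was 2.13-fold higher. Each fold, called a bound here, sets the MeXis null value against the larger of the WT probe's own value and the lowest WT signal above background. For all 4 that was the WT probe's own value, which was not above background. The scanner errors of these differences were 0.48 to 0.54, so the size of the folds is uncertain. Of 464 genes above background on MeXis null only, 87.7% had a bound of at least 2-fold, and with another background correction (normexp) none of the 4 bounds reached 2-fold.

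Genes that act on or respond to amino acids were set beside the carriers, with the 7.68% and 4.55% of all genes as background. In the amino acid response, the ATF4 programme that amino acid shortage switches on, 2 of 23 measured genes were higher in MeXis null by 2-fold or more and 0 lower, and the median was 0.17. They were the serine synthesis phosphatase Psph (593.9 on MeXis null and 249.6 on WT, a difference of 1.18) and the asparaginyl-tRNA synthetase Nars (1.16). With local surface correction Psph was at 1.01 and Nars at 1.09. Lowest were the alanyl-tRNA synthetase Aars (-0.98, or -0.44 with that correction) and Ddit4 (-0.90, or -0.62), an inhibitor of mTORC1, and the factor Atf4 itself differed by 0.17.

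Enzymes of amino acid metabolism spread further than the carriers. Of 18 measured, 1 was higher and 4 were lower by 2-fold or more, with a median of 0.24 that was -0.06 after local surface correction. Arginase 1 (Arg1), which splits arginine into ornithine and urea, read 44.6 on MeXis null and 409.1 on WT, a difference of -3.27, or -3.02 with local surface correction. The alanine aminotransferase Gpt2 was at -1.75, the phenylalanine oxidase Il4i1 at -1.35 and the branched-chain aminotransferase Bcat1 at -1.32. Ornithine decarboxylase (Odc1) was at 1.08 and glutamate dehydrogenase (Glud1) at 0.97. With local surface correction Gpt2 was at -1.11, while Il4i1 (-0.90), Bcat1 (-0.71) and Odc1 (0.92) were under 2-fold. Glud1 (1.05) and the glutamine synthetase Glul (-1.03, against -0.80 without the correction) were then past it. Nitric oxide synthase (Nos2) was not above background on either array.

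Among 11 measured genes of glutathione synthesis, which cystine uptake feeds, and of the NRF2 response, 2 were higher by 2-fold or more and 0 lower. Their median was 0.03. Nfe2l2, the NRF2 gene, was at 1.18 (0.58 after local surface correction) and Nqo1 at 1.01 (0.79), so that neither passed 2-fold with that correction. Lowest were Gclc at -0.69, which turned to 0.10 with the correction, and Hmox1 at -0.64 (-0.34). Of 24 measured genes of lysosomal amino acid sensing, 0 were higher by 2-fold or more and 2 lower, and the median was -0.22, which was -0.01 after local surface correction. The lower genes were Tsc2 (-1.65, or -1.08 after that correction) and Tsc1 (-1.37, or -0.88), which together restrain mTORC1. Its activator Rheb was at 0.89 and the Ragulator subunit Lamtor2 at 0.64. In 9 measured amino acid and dipeptide carriers of other families none reached 2-fold in either direction, with a median of -0.05. The lysosomal peptide and histidine carrier Slc15a3 was at -0.76 and Slc15a2 at -0.66, against 0.51 for the mitochondrial glutamate carrier Slc25a22 and 0.25 for the cystine exporter Ctns.

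**Figure D4:**
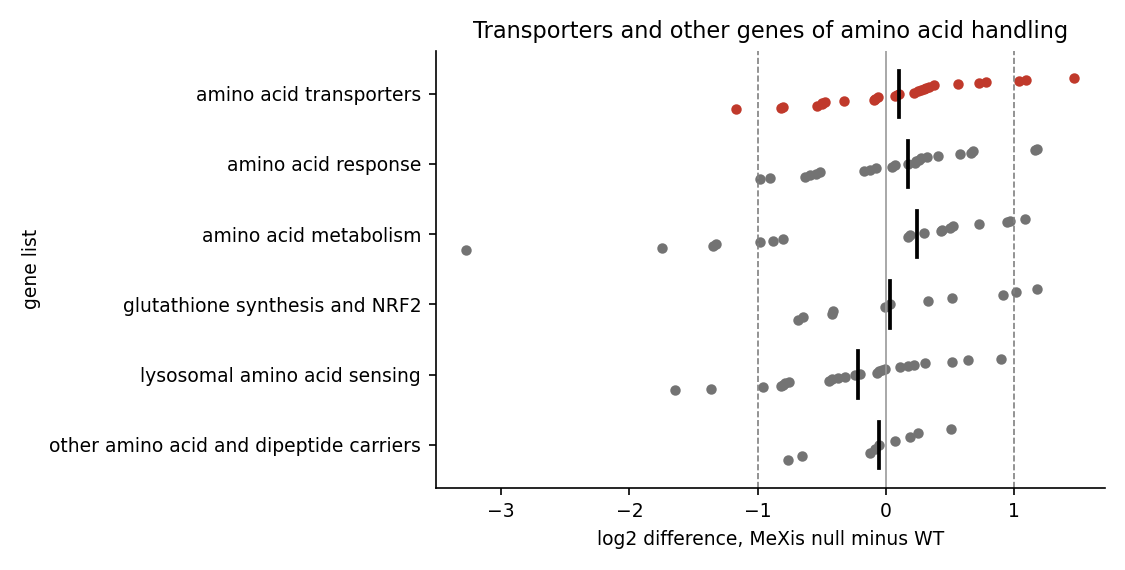
Log2 difference (MeXis null minus WT) of genes above background on both arrays, 1 point for each gene, for the 27 transporters (red) and 5 lists of other genes of amino acid handling (grey). Black bars are medians, from -0.22 to 0.24, dashed lines mark 2-fold, and Arg1 at -3.27 is the point furthest from 0.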

How the data were processed

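Per the file headers, the deposited intensity values are Cy3 signals made by Agilent Feature Extraction 11.5.1.1, which subtracted background and removed trends across the array. The deposited series matrix intensity was the same as that signal in all 62976 features, to within a rounding error (medians 17.0 on MeXis null and 12.9 on WT), so its scale is linear and uncentred; 0 of its columns lacked a sample. On MeXis null 44.3% and on WT 48.0% of 59305 non-control spots were above background. Log2 signals were scaled to the 75th percentile of probes above background on both arrays. Spots marked as outliers were left out (205 and 305), and 0 were saturated. Spots of a probe were averaged. With 1 array a genotype the array number limits the precision, and no test was run. Every member above background is named, and 1 member on neither array is not reported here by name; of each list the 2 highest and 2 lowest genes may be named, and Atf4, Bcat1, Il4i1, Glul, Nos2 and the markers were added after their values were seen. Symbols are those of the files, and all 85 member probes matched by accession to RefSeq GRCm38.p6 kept their symbol. Members, lists and alternatives were chosen with earlier results of these data known. Values were also computed with normexp (offset 50), with quantile, loess, median or all-probe scaling, with local surface correction, with looser and stricter filters, by the probes' median, with outlier spots, and at 1.5-fold and 3-fold. Their effect on bounds and lists was added after seeing the data. Steps were tested on simulated data. Software was numpy 2.4.6, pandas 2.3.3, scipy 1.17.1, statsmodels 0.14.6 and limma 3.58.1.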

Additional observations from a re-analysis of the deposited data

How the results depend on the processing

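No paired analysis was possible because each genotype has 1 array, and no replicate could be left out. The count of transporters at least 2-fold higher was 3 as reported, 1 after local surface correction, 5 at 1.5-fold, 0 at 3-fold and 19 without a filter on dim probes, and that of transporters at least 2-fold lower was 1 as reported, 2 with normexp (Slc6a8 and Slc43a2), 0 by the median of a gene's probes, 3 at 1.5-fold and 0 at 3-fold. The median was 0.10, and 0.60 without the filter, where 60 genes include those on neither array and the median of all genes is 0.48. It lay between 0.02 and 0.22 under the other alternatives. Slc38a10 was at least 2-fold higher under every alternative run at 2-fold (1.01 to 1.51), and Slc43a3 was under 2-fold with quantile, loess, median and all-probe scaling, with normexp and after local surface correction (lowest 0.83). No called difference changed sign. Of the 27 members 12 moved by at least 0.47 under some alternative, 6 with normexp, 6 after local surface correction and 2 by the median of probes. With normexp Slc36a4 went to 1.23, Slc38a6 to -0.84 and Slc7a4 to -0.64. Slc7a4, Slc7a7 (-0.19), Slc38a8 (-0.14) and Slc7a6 (0.03) turned in direction with normexp, and the cause was not tested. The number of members on MeXis null only with a bound of at least 2-fold was 4 as reported and 0 with normexp. Of all genes called at 2-fold, 1189 were higher and 704 lower as reported, 942 and 865 with loess, and 891 and 802 with normexp. Medians of 4 lists took both signs: metabolism -0.06 to 0.36, glutathione -0.09 to 0.27, lysosomal sensing -0.29 to 0.02, and other carriers -0.13 to 0.07; that of the amino acid response stayed between 0.03 and 0.23. Among dim genes the higher lowest signal above background on MeXis null (27.3, against 12.1 on WT) limits what can be read.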
